A study of Arabidopsis thaliana with 24 samples.

Results

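The genes described here are the 96 nuclear genes of Arabidopsis that were lower with titanium (Ti) in roots and in shoots alike after 10 days. They were taken from 12946 genes that were present in the root and the shoot data and had at least 4.99 CPM (read counts scaled to a common library total) in untreated roots and in untreated shoots at 10 days, out of 18519 nuclear genes found in both. A gene was included where the log2F.C., the Ti value minus the Ctrl value on the log2 CPM scale, was -0.5 or less in each organ. The genes were thus chosen by their 10-day values, which are given as a description, with no test, whereas the 3-day libraries were not used in the choice. The study itself tested its replicates, at other limits, and called fewer than 96 genes down in both organs at 10 days. Its calls were not matched to the 96 genes here.

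Wild-type Col-0 seedlings were grown for 5 days on MS agar and transferred to fresh plates that contained 2 mM TiO2 (Ti) or no titanium (Ctrl), and the organs were harvested separately 3 or 10 days later. The 8 groups were Ti-R-3D and Ctrl-R-3D, Ti-R-10D and Ctrl-R-10D, Ti-S-3D and Ctrl-S-3D, and Ti-S-10D and Ctrl-S-10D, where R is root and S is shoot. Each of the 24 libraries, 3 for a group, came from the pooled organs of 160 seedlings, so a value is an average over many plants and over every cell type of the organ. The 3 columns of a group held 1 identical value per gene, so the spread between replicates could not be computed, no difference was tested and no value has an error.

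Shoot marker genes summed to between 73217 and 99802 CPM over the 4 shoot groups, against 814 to 1270 CPM over the 4 root groups, and root marker genes to between 12542 and 16501 CPM in roots, against 460 to 785 CPM in shoots. The read totals of the libraries are not part of the deposited values, so the depth behind each value is unknown here. Fewer cells of a type and less RNA per cell cannot be told apart in whole organs.

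Many of the 96 genes belong to a few well-known processes. Flavonols are antioxidant and auxin-modulating pigments made from phenylalanine through chalcone synthase. The methyl cycle remakes methionine and S-adenosylmethionine, the methyl donor of the cell, and the nucleolus is the site where ribosomal RNA is transcribed, modified and assembled with proteins into ribosomes. Type-A response regulators are quickly induced by cytokinin and dampen its signal.

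The 96 genes were grouped by function by hand. Of them, 24 were placed in the nucleolus or the ribosome, 16 in organelle biogenesis and 14 in metabolism and transport. A further 9 were placed in the methyl cycle and sulfur metabolism, and 9 in the cell wall or outside the cell. The flavonol pathway had 7, cytokinin response 4 and DNA replication and repair 3. The other 10 had other functions or none annotated. These groups were formed, and many of the genes named in them chosen, after the values had been seen. The genes lay on all 5 chromosomes, with 25, 11, 26, 11 and 23 on chromosomes 1 to 5.

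The sequences before 6 genes of the flavonol and the nucleolar group are shown. They were picked because these windows hold short sequences known from promoters of such genes. Windows of other members, such as FLS1, RHM1, FIB2 and HDT4, held none of the words marked below. Each window is the 250 bases before the annotated start of the gene in RefSeq, on TAIR10.1, read 5′ to 3′ on the strand of the gene. For the 3 flavonol genes, capitals mark the G-box CACGTG, which bZIP and bHLH factors bind, and the AC elements ACCTAAC and ACCTACC, which resemble sites of MYB factors.
TT4, chr5:4488226-4488475, forward strand: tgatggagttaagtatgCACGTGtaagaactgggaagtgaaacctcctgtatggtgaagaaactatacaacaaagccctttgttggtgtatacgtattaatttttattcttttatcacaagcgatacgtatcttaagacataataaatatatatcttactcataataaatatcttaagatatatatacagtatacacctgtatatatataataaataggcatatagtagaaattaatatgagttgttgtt
CHIL, chr5:1563036-1563285, forward strand: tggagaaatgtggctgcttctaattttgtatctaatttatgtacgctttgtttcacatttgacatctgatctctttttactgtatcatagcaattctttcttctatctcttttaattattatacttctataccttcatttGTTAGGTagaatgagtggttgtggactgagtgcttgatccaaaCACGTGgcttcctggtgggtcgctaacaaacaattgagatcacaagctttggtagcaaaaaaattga
F3H, chr3:19024942-19025191, forward strand: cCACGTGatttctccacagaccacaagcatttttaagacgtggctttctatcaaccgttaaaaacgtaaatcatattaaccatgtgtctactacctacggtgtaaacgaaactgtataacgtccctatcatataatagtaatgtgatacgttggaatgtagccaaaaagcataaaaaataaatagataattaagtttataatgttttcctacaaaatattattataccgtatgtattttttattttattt
For the 3 nucleolar genes, capitals mark the telo-box AAACCCTA and the site II elements TGGGCC and TGGGCT, words common before genes of ribosomal proteins.
NOP56, chr1:20986953-20987202, reverse strand: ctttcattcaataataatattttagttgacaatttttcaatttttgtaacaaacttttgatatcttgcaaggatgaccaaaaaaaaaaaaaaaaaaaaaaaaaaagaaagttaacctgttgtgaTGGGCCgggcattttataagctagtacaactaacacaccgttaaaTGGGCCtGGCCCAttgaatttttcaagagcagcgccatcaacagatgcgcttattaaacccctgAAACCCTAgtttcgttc
AT5G27120, chr5:9540611-9540860, forward strand: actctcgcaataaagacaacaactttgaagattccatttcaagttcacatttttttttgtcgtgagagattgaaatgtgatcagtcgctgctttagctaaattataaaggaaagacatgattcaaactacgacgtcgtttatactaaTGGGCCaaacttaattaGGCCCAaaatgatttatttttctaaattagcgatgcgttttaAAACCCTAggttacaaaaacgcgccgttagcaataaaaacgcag
SWA1, chr2:19638679-19638928, reverse strand: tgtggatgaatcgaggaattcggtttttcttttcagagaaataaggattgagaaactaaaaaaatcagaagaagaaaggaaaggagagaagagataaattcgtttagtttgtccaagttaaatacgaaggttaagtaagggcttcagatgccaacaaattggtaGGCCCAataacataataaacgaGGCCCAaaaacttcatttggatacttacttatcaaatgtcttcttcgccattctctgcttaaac

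Exact matches were counted on either strand, and a site II match can overlap its own reverse complement. Of the 24 nucleolar and ribosomal genes, 11 windows held a site II element (45.8%). The share was 25.7% among the genes at the Ctrl level and 19.2% among 27443 protein-coding genes. The telo-box was in 5 of these 24 windows (20.8%), against 3.72% at the Ctrl level and 4.49% of all. Both were in 3 of the 24 windows (12.5%), among them NOP56 and AT5G27120, against 1.36% of all protein-coding genes. In NOP56 the telo-box ended 10 bases before the start and 3 site II elements stood upstream of it, whereas SWA1 had 2 site II elements and no telo-box. Of the 7 flavonol pathway genes, 3 windows held a G-box (42.9%), against 7.58% at the Ctrl level and 6.49% of all protein-coding genes. An AC element was in 2 of the 7 (28.6%), against 3.36% at the Ctrl level and 3.58% of all. Of the 16 organelle genes, 7 held a site II element (43.8%), against 25.7% at the Ctrl level. Over all 96 genes, the shares were 27.1% for site II, 10.4% for the telo-box, 10.4% for the G-box and 7.29% for the AC elements. Among the genes at the Ctrl level these shares were 25.7%, 3.72%, 7.58% and 3.36%. A match describes the letters and was not tested as a site.

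At 10 days, 437 of the 12946 genes (3.38%) had a log2F.C. of -0.5 or less in roots and 382 (2.95%) in shoots, while 288 (2.22%) and 373 (2.88%) had 0.5 or more. The 96 genes common to both (0.742%) made up 22.0% of the root list and 25.1% of the shoot list. Their median log2F.C. was -0.71 in roots and -0.65 in shoots, against 0.00 and 0.01 over all 12946 genes, and the lowest values were -1.90 in roots and -1.79 in shoots. The value was lower in roots than in shoots for 54 of the genes and lower in shoots for 42. A log2F.C. of -1 or less was found for 20 genes in roots, for 14 in shoots and for 6 in both.

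**Figure D1:**
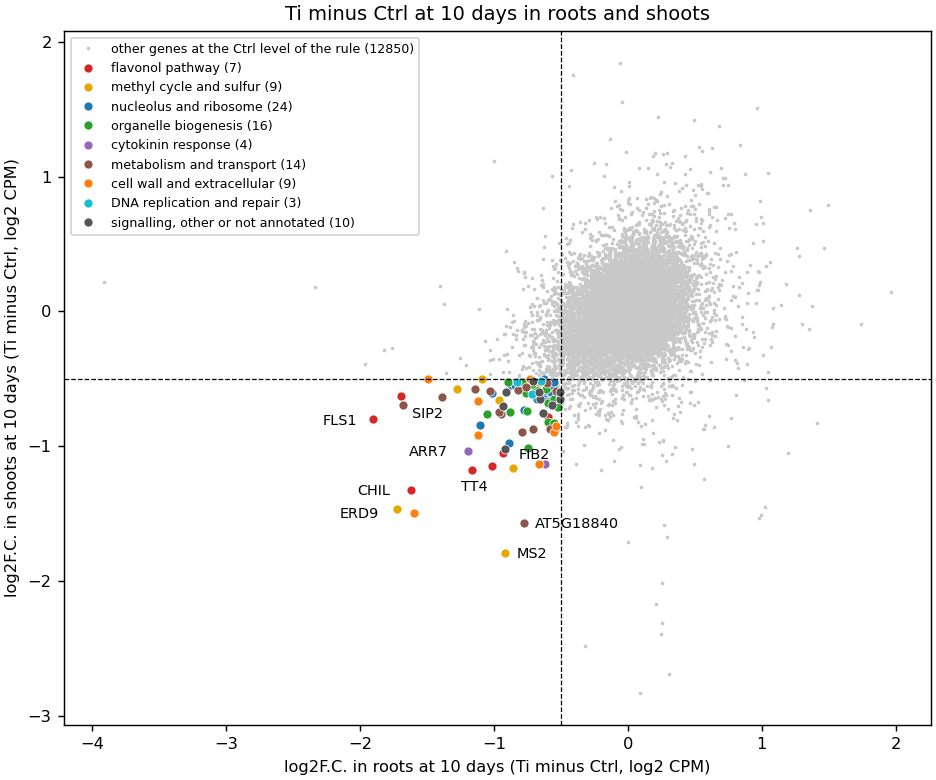
Ti minus Ctrl on the log2 CPM scale at 10 days, in roots (x axis) and shoots (y axis), with 1 point for each of 12946 genes. Colours give the function of the 96 genes under both dashed lines at -0.5, of which FLS1 lies farthest left at -1.90 and MS2 lowest at -1.79.

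The limit itself has no sharp edge in the data. Just inside it were MSRB6 (-0.50 in shoots), EXPA15 (-0.50 in shoots) and PHIP1 (-0.50 in roots), and just outside it RPL23AB (-0.50 in each organ), AT5G50100 (-0.50 in roots) and PHT2;1 (-0.50 in shoots). A further 115 genes had a log2F.C. of -0.5 or less in both organs but lay under the Ctrl level and are not described.

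The flavonol group had the lowest median log2F.C. of the 9 groups, with -1.16 in roots and -1.05 in shoots. TT4 (AT5G13930), chalcone synthase and the entry enzyme of the flavonoid pathway, had 1169 CPM in Ti-R-10D and 2614 CPM in Ctrl-R-10D, and 184 CPM in Ti-S-10D against 414 CPM in Ctrl-S-10D. The level with Ti was thus 44.7% of Ctrl in roots (-1.16) and 44.3% in shoots (-1.17). At 3 days, TT4 had 1883 CPM in Ti roots and 1877 CPM in Ctrl roots, and 90.5 CPM in Ti shoots against 119 CPM in Ctrl shoots. The value was thus lower in shoots at 3 days (-0.39) but not in roots (0.00). TT4 was far higher in roots than in shoots, and 8 of 9 root markers were also below -0.2 in these shoot groups. The part of root RNA in the TT4 value was not tested.

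CHIL (AT5G05270), a chalcone isomerase-like protein that assists chalcone synthase, had 32.2 CPM in Ti roots and 98.7 CPM in Ctrl roots at 10 days, and 8.07 against 20.2 CPM in shoots (Ti against Ctrl). F3H (AT3G51240), flavanone 3-hydroxylase, had 102 CPM in Ti roots and 206 CPM in Ctrl roots, and 20.7 against 46.0 CPM in Ti and Ctrl shoots. FLS1 (AT5G08640), the flavonol synthase, had 43.3 CPM in Ti roots against 162 CPM in Ctrl roots, the lowest root log2F.C. of the 96 genes (-1.90), and 7.72 against 13.5 CPM in Ti and Ctrl shoots (-0.80). TT4, CHIL, F3H and FLS1 thus stood at 26.8% to 57.4% of their Ctrl levels. The 3-day values of CHIL, F3H and FLS1 lay between -0.10 and 0.12 in either organ.

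The group also held enzymes that feed the pathway or decorate its products. 4CL3, a 4-coumarate:CoA ligase of the flavonoid branch, had 4.73 CPM in Ti roots and 15.3 CPM in Ctrl roots (-1.70), and 3.93 against 6.07 CPM in Ti and Ctrl shoots (-0.63). With 1 CPM added before the logarithm, the shoot value was -0.52. RHM1, which makes the UDP-rhamnose used to glycosylate flavonols, had log2F.C. of -0.93 in roots and -1.05 in shoots. AT1G22410, annotated as a DAHP synthase, the enzyme that opens the shikimate pathway, had -0.59 and -0.78.

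Of 19 genes in a list of flavonoid enzymes and regulators, 13 were in both files and 8 reached the Ctrl level, of which 3 (TT4, F3H and FLS1) were lower in both organs. In roots 6 of the 8 had a log2F.C. of -0.5 or less, and in shoots 4 of the 8, with medians of -1.10 and -0.52. TT4, F3H and FLS1 count in both organs by the choice of the genes. Over all 12946 genes, 3.38% in roots and 2.95% in shoots had -0.5 or less. Of 14 eligible genes that the reference annotates to flavonoid biosynthesis, 1 was among the 96, and 3 in roots and 2 in shoots had -0.5 or less, with medians of -0.00 and -0.08. In roots CHI, the chalcone isomerase, had -1.96 and UGT78D1, a flavonol rhamnosyltransferase, -1.76, but in shoots they had -0.39 and -0.27. OMT1, an O-methyltransferase, showed the opposite balance, with -0.03 in roots and -0.65 in shoots.

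Among the genes of the methyl cycle and sulfur metabolism, the medians were -0.91 in roots and -0.64 in shoots. MS2 (AT3G03780), a methionine synthase, had 114 CPM in Ti-R-10D and 215 CPM in Ctrl-R-10D, and 79.1 CPM in Ti-S-10D against 274 CPM in Ctrl-S-10D, the lowest shoot log2F.C. of the 96 genes (-1.79). At 3 days it had 456 CPM in Ti roots and 452 CPM in Ctrl roots, and 329.8 against 317 CPM in Ti and Ctrl shoots. The values at 3 days were thus within 0.06 of each other on the log2 scale.

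SAHH2, an S-adenosylhomocysteine hydrolase, had 116 CPM in Ti roots and 225 CPM in Ctrl roots, and 105 against 166 CPM in Ti and Ctrl shoots, at 10 days. MAT3, which makes S-adenosylmethionine from methionine, had 328 CPM in Ti roots against 481 CPM in Ctrl roots, and 106 against 157 CPM in Ti and Ctrl shoots. Relatives outside the 96 genes were above the limit in at least 1 organ by the choice of the genes, and their values are given as a description. MS1 had -0.44 in roots and -0.49 in shoots, SAHH1 -0.16 and -0.13, and SAM1 and SAM2 lay between -0.07 and 0.05 in either organ, whereas MTO3 had -0.10 in roots and -1.11 in shoots. Over 11 genes of the cycle, 10 were below 0 in roots and 11 in shoots, with medians of -0.44 and -0.28. MS2, SAHH2 and MAT3 were below 0 by the choice of the genes. Of all 12946 genes, 6370 were below 0 in roots and 6279 in shoots.

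Sulfate is activated by ATP sulfurylase and APS kinase before it is reduced or used for sulfation. APS1, an ATP sulfurylase, had 268 CPM in Ti roots and 391 CPM in Ctrl roots, and 453 against 662 CPM in Ti and Ctrl shoots, a log2F.C. of -0.55 in each organ. AKN2, an APS kinase, had 55.9 CPM in Ti roots against 135 CPM in Ctrl roots (-1.27), and 28.3 against 42.1 CPM in Ti and Ctrl shoots (-0.57). Of the 8 ATP sulfurylase and APS kinase genes, 3 had a log2F.C. of -0.5 or less in roots and 3 in shoots. APS1 and AKN2 count in both organs by the choice of the genes. None of the 12 eligible genes in the sulfur deficiency list was among the 96. In shoots 10 of the 12 had a log2F.C. of -0.5 or less (median -1.49), against 2.95% of all 12946 genes. In roots 0 did, against 3.38%, and 8 were above 0.2 (median 0.24), against 17.8%.

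ERD9 (AT1G10370), a tau-class glutathione transferase, had the lowest mean of the root and shoot values among the 96 genes. It had 17.4 CPM in Ti roots and 57.4 CPM in Ctrl roots at 10 days (-1.72), and 28.2 against 78.1 CPM in Ti and Ctrl shoots (-1.47). At 3 days its log2F.C. was -0.06 in roots and 0.01 in shoots. GR1, the cytosolic glutathione reductase, MSRB6, a methionine sulfoxide reductase, and IGMT5, an indole glucosinolate methyltransferase, completed the group with root values between -1.09 and -0.52 and shoot values between -1.16 and -0.50.

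**Figure D2:**
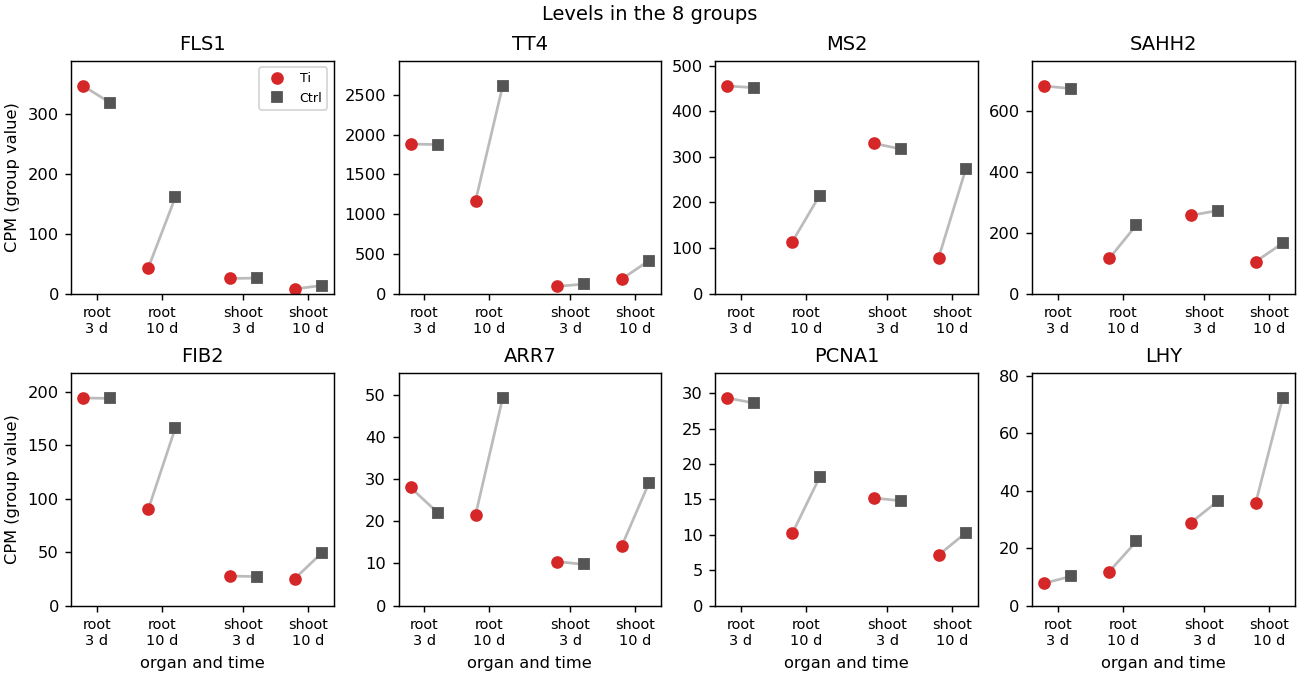
CPM of 8 of the genes in the 8 groups, with Ti (red circles) to the left of Ctrl (grey squares) for each organ and time, on axes that start at 0. Each mark is the authors' value for a group, so there are no error bars. At 10 days Ti lies under Ctrl in each panel and organ by the choice of the genes, while at 3 days MS2 had 456 CPM in Ti roots and 452 CPM in Ctrl roots.

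The 24 nucleolar and ribosomal genes had medians of -0.61 in roots and -0.60 in shoots. FIB2 (AT4G25630), a fibrillarin, the enzyme that methylates ribosomal RNA in box C/D particles, had 90.1 CPM in Ti roots and 166 CPM in Ctrl roots, and 25.03 against 49.1 CPM in Ti and Ctrl shoots. NOP56 (AT1G56110), a core protein of the same particles, had 147 CPM in Ti roots against 223 CPM in Ctrl roots, and 87.8 against 136 CPM in Ti and Ctrl shoots. AT3G12860 and AT5G27120, annotated as NOP56-like, had root values of -0.56 and -0.51 and shoot values of -0.64 and -0.67. All 9 genes of these particles were below 0 in both organs, 4 of them by the choice of the genes, while 6370 of all 12946 genes were below 0 in roots and 6279 in shoots. FIB1, the relative of FIB2, had -0.19 in roots and -0.25 in shoots.

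Other members act in the assembly of the subunits. PPAN, a homologue of the Peter Pan protein, had 20.7 CPM in Ti roots and 30.9 CPM in Ctrl roots, and 17.8 against 26.9 CPM in Ti and Ctrl shoots. OLI2, a homologue of yeast Nop2, had -0.52 in roots and -0.67 in shoots, SWA1, needed for ribosomal RNA processing, -0.61 and -0.60, and NSN1, a nucleolar GTP-binding protein, -0.51 and -0.65. RBL, of the Noc2 family, had -0.60 and -0.59. HDT4 and HDA3, HD2-type histone deacetylases of the nucleolus, had -1.01 and -0.60 in roots, and -0.60 and -0.58 in shoots. Their relative HD2B had -0.54 in roots and -0.41 in shoots, whereas HD2C had 0.05 and 0.03.

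RACK1B and RACK1C, scaffold proteins of the small ribosomal subunit, had -0.55 and -0.77 in roots and -0.53 and -0.73 in shoots, whereas RACK1A had -0.25 and -0.13. Of 189 cytosolic ribosomal protein genes, 3 (1.59%) were among the 96, namely AT1G29965 (L18ae/LX family), RPSAb and AT3G57490 (S5 family). RPSAb had 9.20 CPM in Ti roots against 16.5 CPM in Ctrl roots, and 9.89 against 14.5 CPM in Ti and Ctrl shoots. The value of AT1G29965 is uncertain, because its transcript shares sequence with AT1G29970, and the sum of both had a log2F.C. of -0.11 in either organ. Over the 189 genes the median log2F.C. was -0.36 in roots and -0.14 in shoots, with 187 and 150 genes below 0. Of 269 genes annotated to the nucleolus, ribosomal RNA processing or ribosome biogenesis, 34 had a log2F.C. of -0.5 or less in roots and 29 in shoots. Among them, 14 count in both organs by the choice of the genes. The medians were -0.21 and -0.17, and 3 and 1 genes had 0.5 or more. Over all 12946 genes, 3.38% in roots and 2.95% in shoots had -0.5 or less, and 2.22% and 2.88% had 0.5 or more.

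**Figure D3:**
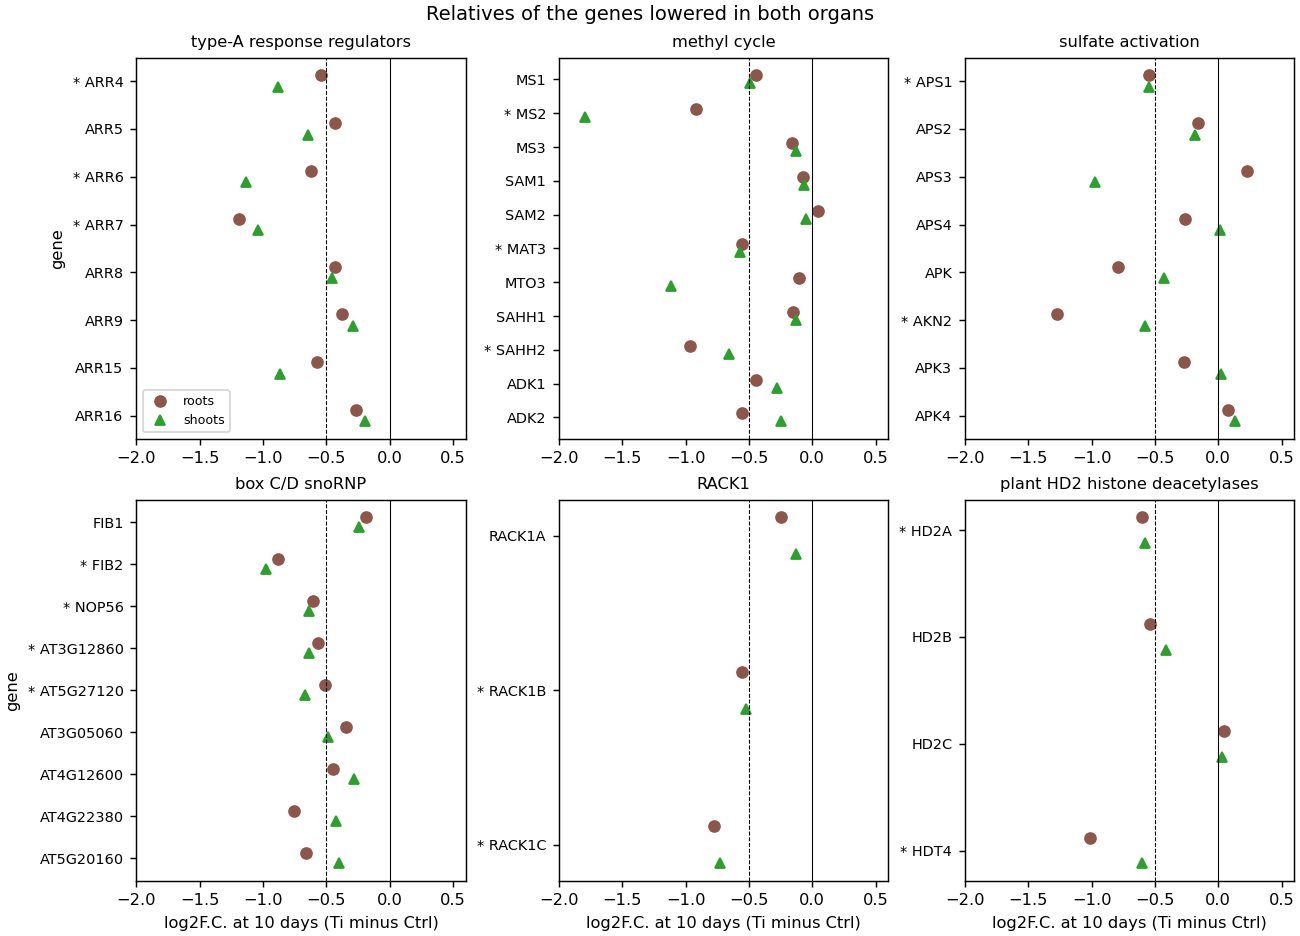
Ti minus Ctrl on the log2 CPM scale at 10 days for 6 gene families, in roots (circles) and shoots (triangles). An asterisk marks the genes lower in both organs, the dashed line is at -0.5, and in roots RACK1A lies at -0.25 and RACK1C at -0.77.

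The organelle biogenesis genes, grouped after their values were seen, had medians of -0.70 in roots and -0.68 in shoots. Of 2008 eligible genes annotated to the chloroplast, 11 (0.548%) were among the 96, and of 629 annotated to the mitochondrion, 7 (1.11%), against 0.742% of all genes. At 10 days the medians in roots and shoots were -0.03 and -0.00 over the chloroplast genes, and -0.08 and -0.03 over the mitochondrial genes. EMB3120, needed for embryo development, had 2.80 CPM in Ti roots and 5.80 CPM in Ctrl roots, and 11.3 against 19.2 CPM in Ti and Ctrl shoots. AT5G14580, a polyribonucleotide nucleotidyltransferase, had -0.75 in roots and -1.02 in shoots. The chaperones mtHsc70-1 (mitochondrial) and Cpn60alpha2 (chloroplast) had -0.55 and -0.90 in roots, and -0.68 and -0.52 in shoots. CGLD27 was the gene with the highest ratio of shoot to root level, with 46.0 against 73.6 CPM in Ti and Ctrl shoots and 4.94 against 7.45 CPM in Ti and Ctrl roots. The value of emb1796, a pentatricopeptide repeat protein, is uncertain, because summed with the overlapping AT3G49250 it had -0.39 in roots and -0.16 in shoots.

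Cytokinin response was represented by ARR4, ARR6 and ARR7, type-A response regulators, and UGT76C2, which inactivates cytokinin by glucosylation. ARR7 (AT1G19050) had 21.6 CPM in Ti-R-10D and 49.3 CPM in Ctrl-R-10D (-1.19), and 14.2 CPM in Ti-S-10D against 29.1 CPM in Ctrl-S-10D (-1.04). At 3 days it was higher with Ti in roots, with 28.1 CPM in Ti and 22.1 CPM in Ctrl (0.35). ARR4 had 204 CPM in Ti roots and 297 CPM in Ctrl roots at 10 days, and 82.8 against 152 CPM in Ti and Ctrl shoots. ARR6 had -0.62 in roots and -1.13 in shoots. All 8 type-A regulators present in both files, 3 of them placed there by the choice of the genes, were below 0 in both organs at 10 days, as were 6370 of all 12946 genes in roots and 6279 in shoots, with medians of -0.49 in roots and -0.76 in shoots.

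The metabolism and transport group was led by SIP2 (AT3G57520), a raffinose-degrading alpha-galactosidase, with 205 CPM in Ti roots and 657 CPM in Ctrl roots at 10 days (-1.68), and 269 against 437 CPM in Ti and Ctrl shoots (-0.70). ERD5 (AT3G30775), the proline dehydrogenase that starts proline breakdown, had 395 CPM in Ti roots against 761 CPM in Ctrl roots, and 393 against 667 CPM in Ti and Ctrl shoots. AT5G18840, annotated as a major facilitator transporter, had 25.5 CPM in Ti roots against 43.7 CPM in Ctrl roots, and 12.01 against 35.6 CPM in Ti and Ctrl shoots (-1.57). KAT5, a peroxisomal thiolase of fatty acid breakdown, had -1.38 in roots and -0.64 in shoots. The amino acid permease AAP4 had -1.03 and -0.59, and TPPG, a trehalose-phosphate phosphatase, -0.58 and -0.87.

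Genes of the cell wall and the extracellular space included XTH31, which cuts and rejoins xyloglucan, with 120.3 CPM in Ti roots and 261 CPM in Ctrl roots, and 15.3 against 28.9 CPM in Ti and Ctrl shoots. EXPA15, an expansin that loosens walls, had 75.7 CPM in Ti roots against 212 CPM in Ctrl roots (-1.49), and 16.9 against 23.9 CPM in Ti and Ctrl shoots. AT5G62210, an embryo-specific protein 3 family gene, had -1.59 in roots and -1.50 in shoots. The endoglucanase-type GH9C2 had -1.12 and -0.67, and PG1 had -0.55 and -0.90. None of the 19 eligible genes in a separate list of wall and expansion genes was among the 96. In roots 12 of the 19 were above 0.2 at 10 days, against 17.8% of all 12946 genes, and 6 had 0.5 or more, against 2.22%. The median of the 19 was 0.32 in roots and 0.04 in shoots.

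PCNA1, the sliding clamp of DNA replication, had 10.2 CPM in Ti roots and 18.1 CPM in Ctrl roots, and 7.14 against 10.3 CPM in Ti and Ctrl shoots. Its relative PCNA2 had -0.31 in roots and -0.10 in shoots, a comparison chosen after the values were seen. DUT1, a dUTP pyrophosphatase, had -0.72 and -0.62, and the photolyase PHR1 -0.65 and -0.52. LHY (AT1G01060), a morning transcription factor of the circadian clock, had 11.9 CPM in Ti roots against 22.4 CPM in Ctrl roots, and 35.6 against 72.4 CPM in Ti and Ctrl shoots. The labels used here give no hour of harvest for the groups.

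Of the genes with the highest Ctrl levels, TT4 and ERD5 are described above, and the third was AT2G01021. AT2G01021 had 3118 CPM in Ti roots and 5093 CPM in Ctrl roots, and 385 against 552 CPM in Ti and Ctrl shoots, at 10 days. This short open reading frame lies at chr2:6571-6672 on TAIR10.1, shortly after an rRNA gene that ends at 5945, and its transcript matched AT3G06365 as well, so its reads cannot be assigned with certainty. GRP9, a glycine-rich protein, had 2437 CPM in Ti roots against 3864 CPM in Ctrl roots, and 44.5 against 63.8 CPM in Ti and Ctrl shoots.

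Of the 18 pathway lists examined beside the ribosomal proteins, 4 held any of the 96 genes. These were flavonoid (3 genes), aliphatic glucosinolate (AKN2), cell cycle and histones (PCNA1), and cold-inducible and circadian genes (LHY). The other 14 held 0, among them iron deficiency (0 of 9 eligible genes), phosphate starvation (0 of 9), nitrate and nitrogen (0 of 16), heat shock (0 of 11), jasmonate (0 of 11) and rapid stress transcription factors (0 of 20). With 0.742% of all genes among the 96, a count of 0 in lists of this size is near the background.

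**Figure D4:**
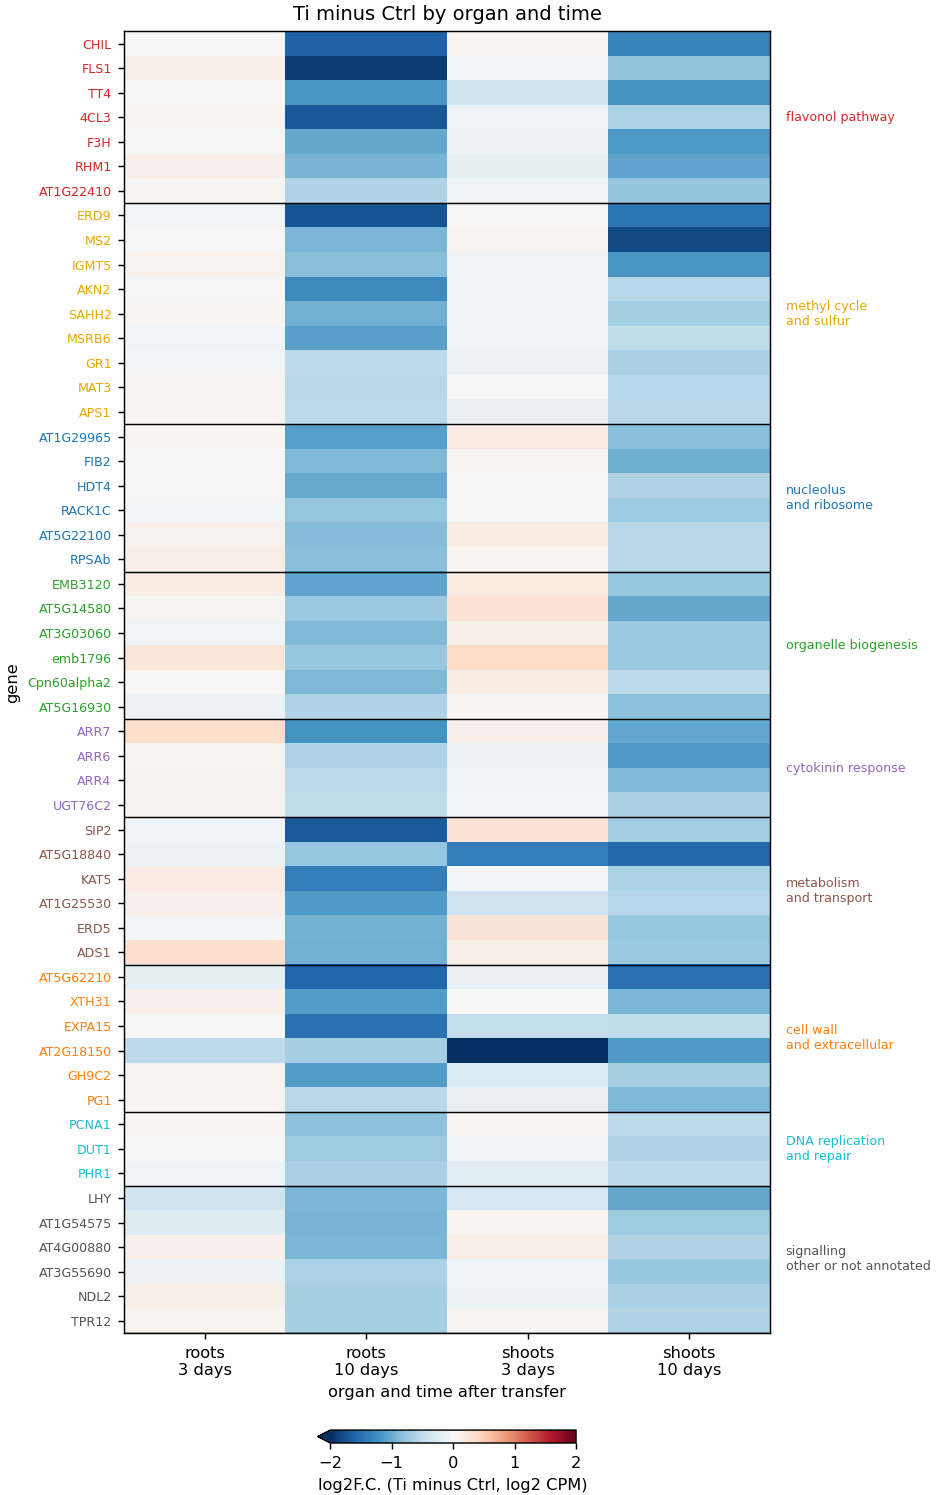
Ti minus Ctrl on the log2 CPM scale for a selection of the 96 genes, in columns for roots at 3 and 10 days and shoots at 3 and 10 days. Flavonol, methyl cycle and sulfur, and cytokinin genes are shown in full and of the other groups the 6 with the lowest mean at 10 days (3 for DNA replication). The 10-day columns are blue by the choice of the genes, while most 3-day cells are near white, except for AT2G18150 (-2.24) and AT5G18840 (-1.39) in shoots.

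The 3-day libraries, which the choice did not use, showed whether the difference was there earlier. In roots at 3 days, 3 of the 96 genes had a log2F.C. below -0.2, against 2.71% of all 12946 genes, and 4 had one above 0.2, against 2.67%. Their median was 0.02 in roots, against -0.01 over all genes. In shoots at 3 days, 13 of the 96 (13.5%) were below -0.2, against 5.39% of all genes, and 7 (7.29%) above 0.2, against 7.18%. Their median there was -0.02, against 0.00 over all genes, so most of the genes lower at 10 days had values near 0 at 3 days. A log2F.C. of -0.5 or less was found at 3 days for 1 of the 96 genes in roots, against 0.154% of all genes, and for 4 in shoots, against 0.649%.

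No nucleolar or ribosomal gene was beyond 0.2 in either direction at 3 days. Their 3-day medians were -0.01 in roots and 0.02 in shoots. The flavonol genes had 3-day medians of 0.02 in roots and -0.09 in shoots, and TT4 in shoots was the only gene of that group below -0.2. The methyl cycle and sulfur genes had 0.01 and -0.09, with none beyond 0.2.

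Only AT2G18150 and LHY were below -0.2 in both organs at 3 days. LHY had 7.76 CPM in Ti roots and 10.2 CPM in Ctrl roots at 3 days (-0.40), and 28.8 against 36.3 CPM in Ti and Ctrl shoots (-0.33). AT2G18150, a class III peroxidase, had 35.4 CPM in Ti roots against 50.9 CPM in Ctrl roots, and 0.293 against 1.38 CPM in Ti and Ctrl shoots. In shoots these levels were so low that the log2F.C. of -2.24 became -0.88 with 1 CPM added. AT1G54575, of unknown function, was the remaining gene below -0.2 in roots (-0.24).

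The 13 genes below -0.2 in shoots at 3 days included 5 of the 9 cell wall and extracellular genes, against 5.39% of all 12946 genes. Of these 5, AT1G48750 (-0.21) is uncertain, because summed with the overlapping AT1G48760 it had -0.04. EXPA15 had 17.1 CPM in Ti shoots against 23.6 CPM in Ctrl shoots (-0.47), and GRP9 11.8 against 39.3 CPM (-1.73). AT5G18840 had 0.371 CPM in Ti shoots and 0.970 CPM in Ctrl shoots (-1.39, or -0.52 with 1 CPM added). Root marker genes were lower in the same shoot samples. Of the 9 root markers found in shoots, 8 were below -0.2 at 3 days, with a median of -0.88, and their summed level was 679 CPM in Ti and 785 CPM in Ctrl shoots. At 10 days 5 of the 9 were below -0.2, with a median of -0.27 and sums of 460 and 466 CPM in Ti and Ctrl shoots. Most of each sum came from the highest marker, so the sums say little about the others. The highest marker had 633 and 728 CPM in Ti and Ctrl shoots at 3 days, and 426 and 423 CPM at 10 days. Of the 96 genes, 7 were over 10 times higher in Ctrl roots than in Ctrl shoots at 10 days. Without them 10 genes were below -0.2 in shoots at 3 days, with a median of -0.002. The 7 were picked by 10-day levels, so genes far higher in roots at 3 days were not all left out. Among the 10, the 3-day Ctrl levels ran from 50.9 CPM in roots and 1.38 CPM in shoots (AT2G18150) to 10.2 and 36.3 CPM (LHY). The part of root RNA in these shoot values was not tested. Shoot markers in roots were higher with Ti, the median being 0.34 at 3 days and 0.24 at 10 days.

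**Figure D5:**
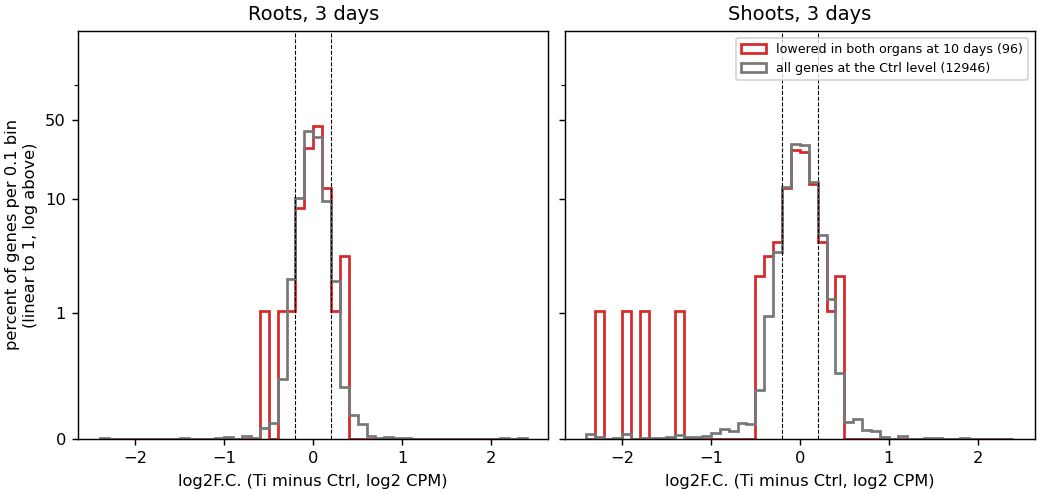
Distribution of the 3-day log2F.C. (Ti minus Ctrl, log2 CPM) in roots (left) and shoots (right), as the percent of genes in each bin of width 0.1, for the 96 genes (red) and all 12946 genes (grey). The vertical axis is linear up to 1 and logarithmic above, dashed lines are at -0.2 and 0.2, and the medians of the 96 genes are 0.02 in roots and -0.02 in shoots.

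Levels of the genes were also followed from 3 to 10 days within each treatment, which shares the Ti-10D and the Ctrl-10D values with the choice of the genes, so that the gap between Ti and Ctrl here was fixed by that choice. In roots, the median of the 96 genes was -0.85 with Ti (85 lower at 10 days) and -0.13 in Ctrl (57 lower), while over all 12946 genes it was 0.03 and 0.04. In shoots, it was -0.02 with Ti and 0.69 in Ctrl, against 0.06 and 0.05 over all genes. Of the 24 nucleolar and ribosomal genes, 17 were higher at 10 than at 3 days in Ti shoots, with a median of 0.26, and all 24 in Ctrl shoots, with a median of 0.86. In roots all 24 were lower at 10 days with Ti (median -0.85), and 19 of the 24 in Ctrl (median -0.19). ARR7 had 28.1 CPM at 3 days and 21.6 CPM at 10 days in Ti roots, whereas Ctrl roots had 22.1 CPM at 3 days and 49.3 CPM at 10 days.  For MS2 in shoots, Ti at 10 days (79.1 CPM) was the lowest of the 4 groups, and the other 3 lay between 274 and 329.8 CPM.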

How the data were processed

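RNA-seq was made from 24 libraries of Arabidopsis roots and shoots, in 8 groups of 3 by organ, time and treatment, as the labels give them. Per the labels and the study's methods, the authors checked reads with FastQC (v0.11.9), trimmed them with Trim Galore (v0.6.6), quantified Araport11 transcripts with kallisto (v0.44.0), and filtered and normalized the values with edgeR, roots and shoots separately. The limit of that low-value filter is not given in the sources used here. The deposited values are log2 CPM, with 1 identical value per gene in the 3 columns of each group. A planned limma fit could therefore not be made, and differences, Ti minus Ctrl, carry no test or error.

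Genes were matched by locus, without organelle genomes, and included by the Ctrl level of 4.99 CPM and the limit of -0.5. The lists, limits and genes were chosen with earlier results of these data known. Named genes were the 12 with the lowest mean at 10 days, those in a list, those below -0.2 at 3 days in both organs, the 3 nearest to the limit on each side and the 3 with the highest Ctrl level. Others were chosen after their values were seen. Names and the 250 bases before each gene came from RefSeq (TAIR10.1), and near-identical transcripts (95% identity over 80% of the length) from blastn (2.17.0+). Python 3.11.15, numpy 2.4.6, pandas 2.3.3 and matplotlib 3.10.9 were used. The code of the selection was checked on simulated data, which says nothing of the spread between replicates here. Alternatives were other scalings, 1 CPM added before the logarithm, other limits and sums over shared transcripts.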

Additional observations from a re-analysis of the deposited data

Results flagged for a closer look

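Some of the genes lower at 10 days were higher with Ti at 3 days in the same organ. In roots, ARR7 had a log2F.C. of 0.35 at 3 days and -1.19 at 10 days, ADS1, a putative MATE-type transporter, 0.32 and -0.96, emb1796 0.24 and -0.75, and AT2G01021 0.38 and -0.71. In shoots, SIP2 had 0.27 at 3 days and -0.70 at 10 days, ERD5 0.27 and -0.76, AT5G14580 0.28 and -1.02, ABO6 0.25 and -0.83, emb1796 0.38 and -0.74, AT3G13150 0.41 and -0.71, and ACHT5 0.44 and -0.58. Above 0.2 at 3 days in roots were 4 of the 96 genes (4.17%), against 2.67% of all 12946 genes. In shoots 7 were (7.29%), against 7.18%, so the shoot count was near the share over all genes. Of these 7 shoot genes, 5 belong to organelle biogenesis, a group formed after the values were seen. Summed with the overlapping AT3G49250, emb1796 had 0.08 in roots and 0.13 in shoots at 3 days, so its own value is uncertain. AT2G01021 also differed between organs at 3 days, with -1.93 in shoots and 0.38 in roots. With 1 value per group, none of these differences was tested, and the 10-day values were used to choose the genes.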

How the results depend on the processing

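No paired analysis was possible because the 3 columns of each group hold identical values. For the same reason no replicate was left out in turn. The number of genes lower in both organs was 96, and 104 with the median log2F.C. set to 0, 127 with sums made equal, 97 after quantile scaling (92 of the 96 shared) and 79 with 1 CPM added. With no Ctrl level it was 211, of which 20 were below -0.2 in roots and 57 in shoots at 3 days. At 10 CPM it was 73, with 1 in roots and 8 in shoots. A limit of -0.4 gave 213 genes, 23 of them below -0.2 in shoots at 3 days, and a limit of -0.7 gave 25, with 3. A 3-day limit of -0.3 left 2 in roots and 9 in shoots. Leaving out the 7 root-heavy genes was chosen after seeing the data. The 3-day median in shoots was -0.02, and had the other sign at 10 CPM (0.003) and at the limit of -0.7 (0.01), all near 0. The 3 genes that share transcripts with genes in the files (AT1G29965, emb1796 and AT1G48750) were not at -0.5 or less in both organs once summed. The unknown depth limits the low values most.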
